A study of Mus musculus with 6 samples.

Results

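Base excision repair and the direct reversal of alkylated bases were examined in whole testes of mice that lack Alkbh1. The genes were chosen by name, as all probe sets whose platform annotation gives exactly 1 of 29 repair gene symbols. Of these names 27 were found, on 51 of the 45037 probe sets that are not array controls. Neil2 had no such probe set, and the 3 probe sets of Tdg also name other genes, so the expression of both genes was not analysed here. The data came from 3 wild-type mice (WT) and 3 mice labelled Alkbh1-/- (KO), all 12 weeks old, with the strain given as C57/BL6 by the source label and as C53/BL6 by the genotype field. Total RNA of each testis was hybridised to 1 Affymetrix array per mouse, and RNA integrity numbers lay between 9.8 and 10, per the labels. The labels name no other allele or treatment in either group, and how the Alkbh1 allele was made is not stated there.

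Base excision repair removes single damaged bases from DNA. A DNA glycosylase cuts out the base, an AP endonuclease cuts the strand at the empty site, a polymerase fills the gap and a ligase seals it, while PARP enzymes and the scaffold XRCC1 gather these factors at the break. Direct reversal needs none of these steps, since MGMT takes the alkyl group off guanine by itself. ALKBH1 belongs to the AlkB dioxygenases, some of which reverse alkylation directly, and the human protein has been reported to cut DNA at abasic sites. In the testis, base excision repair acts in germ cells, where oxidised, deaminated and alkylated bases can otherwise be passed on.

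The Alkbh1 probe set 1434660_at read 8.43, 8.65 and 8.72 log2 in the WT mice and 5.76, 5.30 and 5.20 in the KO mice (difference −3.18 ± 0.15 log2, limma adjusted p = 0.000582). The KO values lay under 6.02, the lowest mean level that was tested, and may be bounded by background, so no ratio of transcript is given. The second tested probe set, 1438681_at, read 6.97, 6.82 and 7.16 in WT and 6.03, 5.78 and 6.10 in KO, without overlap but not past the test (−1.02 ± 0.12, limma adjusted p = 0.0697). Testis identity was clear from germ cell markers, with a mean level of the 6 spermatid markers between 14.07 and 14.14 log2 in every array. The epididymis markers had 0 of their 4 probe sets above the level filter, yet that of Adam7 read 6.78 in KO replicate 2 against 5.01 to 5.94 in the other mice. Lcn5 did not stand out in that mouse (5.48, against 5.31 to 5.53). Defb1 read 5.83 there against 5.68 to 5.89 at 1419492_s_at, and 4.06 against 3.51 to 3.96 at 1419491_at. Fabp4, a fat marker, read 9.80 in KO replicate 2 and 8.38 in WT replicate 3 at 1417023_a_at, against 5.77 to 7.09 elsewhere. The mean level of the 2 tested fat probe sets lay between 7.04 and 8.45 in WT and between 7.66 and 9.25 in KO, and the part of these markers' tissues in the repair values was not tested. The arrays of WT replicates 1 and 2 differed most from each other. Leaving out 1 of these 2 moved the difference of 9 of the 42 tested repair probe sets by 0.1 log2 or more, and leaving out any single mouse did so for 11. In whole tissue, fewer cells of a type and less RNA per cell cannot be told apart.

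No repair gene on the list passed the test between WT and KO. Of the 51 probe sets, 42 lay among the upper 60% by mean log2 value and were tested, which covered 26 genes. At an adjusted p under 0.05 by limma, 0 of the 42 passed, against 0.0407% of all 27022 tested probe sets. With so low a share over the whole array, 0 of 42 says little by itself. The second Alkbh1 probe set, at −1.02 ± 0.12, did not pass either (limma adjusted p = 0.0697). A fit without limma's moderation called 0 of all 27022, Alkbh1 included, so its 0 among the repair genes carries no information. An unadjusted p under 0.05 was reached by 1 of the 42 (2.38%, against 5.11% of all). Adjusted p among the 42 ran from 0.863 to 0.999, and the differences from −0.15 to 0.20 log2.

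The size of the error limits how large a difference in array signal could have been missed at a tested probe set. The intervals hold for single probe sets and were not adjusted over the 42. They do not cover the 9 probe sets too low to be tested, nor Neil2 and Tdg. The 95% interval of the KO minus WT difference lay within 0.5 log2 (1.41-fold) either way for all 42 probe sets (100%, against 93.2% of all tested). It lay within 0.3 log2 (1.23-fold) for 30 of the 42 (71.4%, against 65.0% of all). The median half-width of the interval was 0.17 log2, and the widest was 0.39. Changes in a small cell population could be diluted below these sizes in whole tissue.

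**Figure D1:**
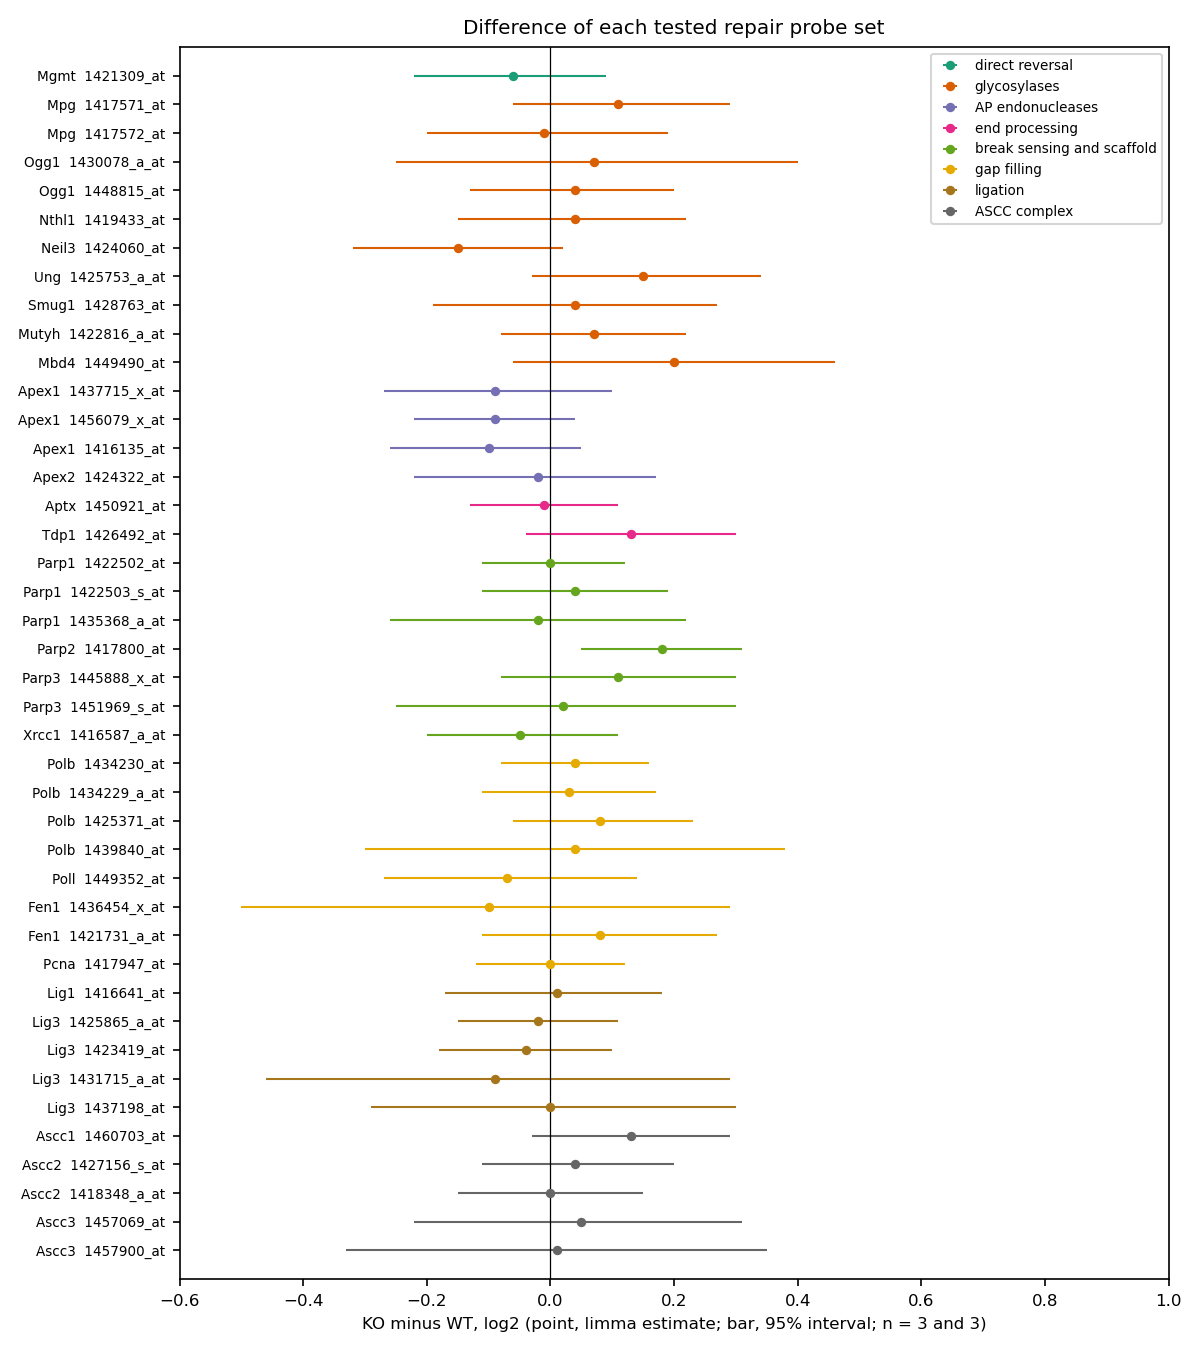
KO minus WT difference in log2 for the 42 tested repair probe sets (points, limma estimate; bars, 95% interval; 3 WT and 3 KO mice), coloured by step of the pathway. The points lie between −0.15 and 0.20, and 1 interval, that of Parp2, leaves out 0.

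On 3 genes, the tested probe set with the highest mean separated the WT from the KO mice without overlap: Parp2, Neil3 and Mpg. Their promoter sequences are shown for orientation, and these genes were chosen by this separation alone, since others had a smaller p than Mpg (0.16). Each line holds the 250 bases before the start of the gene, 5′ to 3′ on the gene's strand, from RefSeq (GRCm38.p6), with every CpG in capitals. Parp2 lies at chr14:50807666-50807915, plus strand. Neil3 lies at chr8:53639066-53639315, minus strand, and Mpg at chr11:32226255-32226504, plus strand.
Parp2: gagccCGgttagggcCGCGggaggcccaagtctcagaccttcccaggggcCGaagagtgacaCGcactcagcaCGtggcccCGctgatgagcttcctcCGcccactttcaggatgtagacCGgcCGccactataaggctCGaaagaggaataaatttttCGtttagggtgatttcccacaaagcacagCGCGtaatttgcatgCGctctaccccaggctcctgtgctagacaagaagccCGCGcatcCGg
Neil3: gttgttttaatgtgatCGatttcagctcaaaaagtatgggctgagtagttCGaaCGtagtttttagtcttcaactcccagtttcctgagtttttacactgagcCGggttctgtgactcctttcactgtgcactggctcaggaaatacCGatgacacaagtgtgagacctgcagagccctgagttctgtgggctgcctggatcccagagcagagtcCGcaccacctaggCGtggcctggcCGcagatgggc
Mpg: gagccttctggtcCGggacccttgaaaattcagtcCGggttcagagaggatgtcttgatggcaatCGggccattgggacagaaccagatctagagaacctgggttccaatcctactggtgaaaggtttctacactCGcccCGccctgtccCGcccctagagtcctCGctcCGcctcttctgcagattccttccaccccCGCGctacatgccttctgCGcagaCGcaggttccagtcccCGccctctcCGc

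The Parp2 window holds 18 CpG, that of Mpg 14 and that of Neil3 8. RefSeq promoters were matched for 25 of the 29 names (32 windows), with a median of 15 CpG, against 14 for the windows of all genes tested on the arrays. Windows with 10 CpG or more made up 81.2% of the repair windows and 65.0% of all. The GC box GGGCGG, searched on both strands, was present in 53.1% of the repair windows and 53.3% of those of all tested genes. It was found in the Parp2 and Mpg windows and not in that of Neil3. The CCAAT box, searched likewise as CCAAT, was present in 40.6% and 34.7%. These shares were not tested against each other.

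Parp2 came closest to a difference. It encodes a DNA-dependent poly(ADP-ribose) polymerase that is activated by strand breaks. Its single probe set 1417800_at read 8.94, 8.99 and 8.97 log2 in WT and 9.10, 9.15 and 9.19 in KO. All KO values lay above all WT values, and both groups were tight (SD 0.03 in WT and 0.05 in KO, n = 3 each). The difference was 0.18 ± 0.06 (SE), or 1.13-fold, with a 95% interval from 0.05 to 0.31 (limma unadjusted p = 0.0151, adjusted p = 0.863). It did not pass, and it ran from 0.16 to 0.20 over 16 alternative settings with adjusted p from 0.243 to 1. Ttc5, which lies 2 protein-coding genes away from Parp2 on chromosome 14, differed by a similar 0.18 ± 0.08 (limma adjusted p = 0.984), while Ccnb1ip1 between them stood at 0.09 ± 0.07. On the other side the nearest tested gene, Osgep, stood at −0.06 ± 0.08. Whether chromosomal position bears on the Parp2 value was not tested.

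Separation without overlap was no more frequent among the repair probe sets than elsewhere. It was found for 4 of the 42, those of Parp2, Neil3 and Mpg and 1 of Polb, which is 9.52%, against 11.0% of all tested probe sets. Of the 4, 3 were higher in KO (7.14%, against 7.12% of all) and 1 was lower (2.38%, against 3.84%). A single difference, that of Mbd4, exceeded 0.2 log2 in size (2.38%, against 6.76%).

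**Figure D2:**
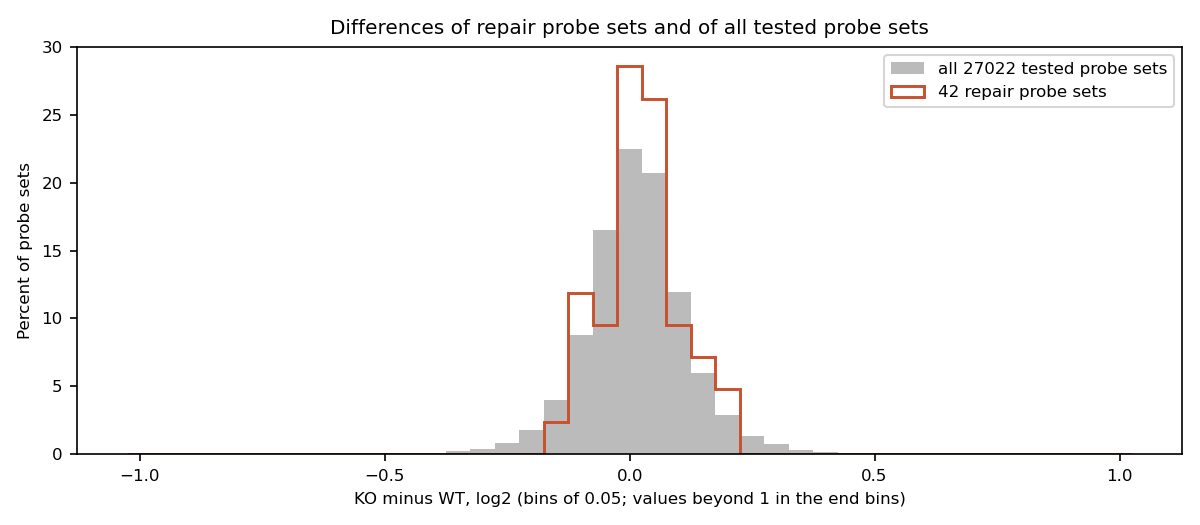
Percent of probe sets by KO minus WT difference in log2 (bins of 0.05) for the 42 repair probe sets (line) and all 27022 tested probe sets (grey). The repair probe sets span −0.15 to 0.20 and sit inside the spread of all probe sets.

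Direct reversal was represented by Mgmt, the alkyltransferase that repairs alkylated guanine. Its probe set read 7.00, 7.07 and 6.98 log2 in WT and 6.91, 6.95 and 7.00 in KO. The groups overlapped, and the difference was −0.06 ± 0.07 with a 95% interval from −0.22 to 0.09. The dioxygenases of direct reversal outside the list, Alkbh2 and Alkbh3, differed by −0.10 ± 0.09 at the tested probe set of Alkbh2 and by 0.09 ± 0.08 and 0.18 ± 0.08 at those of Alkbh3, none of which passed.

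The glycosylases make up the largest group, with 10 tested probe sets on 8 genes, 0 of which passed. Differences ran from −0.15 to 0.20, with 8 probe sets above 0 and 2 below. Neil3, which removes oxidised bases and acts on single-stranded and crosslinked DNA, gave the lowest of them. Its probe set 1424060_at read 9.28, 9.46 and 9.26 in WT and 9.22, 9.21 and 9.12 in KO. All KO values lay under all WT values, by as little as 0.04 between the nearest 2 mice. The difference was −0.15 ± 0.07 (limma unadjusted p = 0.0758, adjusted p = 0.993). It became −0.09 without WT replicate 2, the highest mouse, and ran from −0.19 to −0.08 over the alternatives. The other Neil3 probe set, under the level filter, stood 0.11 higher in KO.

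Mpg, the glycosylase that removes alkylated purines, read 9.61, 9.39 and 9.61 in WT and 9.65, 9.64 and 9.67 in KO at probe set 1417571_at. The KO mice lay within 0.03 of each other, just above WT replicates 1 and 3, and WT replicate 2 was low. The difference of 0.11 ± 0.07 (95% interval −0.06 to 0.29) became 0.04 without WT replicate 2. The second tested Mpg probe set, 1417572_at, gave −0.01 ± 0.09 with overlapping groups, so the separation was seen at 1 of 2 tested probe sets.

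Uracil and its relatives are removed by Ung, Smug1 and Mbd4. Ung read 7.97, 8.06 and 7.99 in WT and 8.02, 8.24 and 8.23 in KO, where KO replicate 1 fell within the WT range. Mbd4, which removes the thymine or uracil left by deamination at CpG sites, read 8.28, 8.57 and 8.53 in WT and 8.53, 8.61 and 8.86 in KO at its tested probe set. WT replicate 1 was the lowest and KO replicate 3 the highest, and the groups overlapped between 8.53 and 8.57. The differences were 0.15 ± 0.08 for Ung and 0.20 ± 0.11 for Mbd4 (limma adjusted p = 0.993 for both). The Mbd4 value ran from 0.10 to 0.27 over the alternatives, with 0.10 without KO replicate 3. Smug1 stood at 0.04 ± 0.10 (−0.06 without WT replicate 2), and both further Mbd4 probe sets lay under the filter.

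The other glycosylases of oxidised bases differed less than Neil3. Ogg1, which excises oxidised guanine, read 8.79, 8.26 and 8.29 in WT at 1430078_a_at and 8.60, 8.47 and 8.49 in KO. WT replicate 1 was high, and the difference was 0.07 ± 0.14. It was 0.25 when that mouse was left out, and leaving out WT replicate 2 gave −0.02. The second Ogg1 probe set gave 0.04 ± 0.07. Mutyh, which removes adenine paired with oxidised guanine, read 7.21, 7.20 and 7.23 in WT and 7.33, 7.22 and 7.28 in KO (0.07 ± 0.07). Nthl1, which removes oxidised pyrimidines, stood at 0.04 ± 0.08. Neil1, which has the same class of substrate, read 5.03, 5.04 and 4.96 in WT and 5.18, 5.03 and 5.12 in KO. Its only probe set lay under the level filter, and Neil1 is the 1 gene found that was not tested.

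Apex1, the main AP endonuclease, gave 3 probe sets that moved alike across the 6 mice. The probe set 1416135_at read 10.13, 10.22 and 10.26 in WT and 10.16, 10.01 and 10.14 in KO. KO replicate 2 was the lowest mouse at all 3 probe sets, and WT and KO overlapped at each. The differences were −0.09 ± 0.08, −0.09 ± 0.06 and −0.10 ± 0.07, with limma adjusted p of 0.993 for all 3. Without KO replicate 2 they became −0.01, −0.07 and −0.05. Apex1 shares chromosome 14 with Parp2, whose difference had the opposite sign, and a part of chromosomal position in either value was not tested. The X-linked Apex2, a related nuclease, stood at −0.02 ± 0.09 at a probe set whose mean of 6.02 lay just inside the filter. Its other probe set, at 5.51, was not tested.

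End processing prepares a break for ligation. Aptx, which removes adenylate left by an abortive ligation, read 11.35, 11.45 and 11.45 in WT and 11.41, 11.39 and 11.41 in KO. These 6 values lay close together, and the difference of −0.01 had a 95% interval from −0.13 to 0.11. Tdp1, which releases topoisomerase trapped on DNA ends, read 10.64, 10.53 and 10.72 in WT and 10.88, 10.70 and 10.70 in KO. KO replicate 1 was high, the other KO mice lay within the WT range, and the difference was 0.13 ± 0.07 (limma adjusted p = 0.993). Tdp1 lies on chromosome 12, as does Alkbh1. Its nearest tested neighbours on either side, Efcab11 and Kcnk13, stood at −0.04 ± 0.07 and −0.01 ± 0.11, and a part of position in the Tdp1 value was not tested.

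Of the other break sensors and the scaffold, Parp1 and Xrcc1 stood close to 0. Parp1, the main poly(ADP-ribose) polymerase, read 10.97, 10.90 and 10.97 in WT and 10.95, 10.93 and 10.97 in KO at probe set 1422502_at. Its 3 tested probe sets gave 0.00 ± 0.05, 0.04 ± 0.07 and −0.02 ± 0.10, the last of which became −0.13 without WT replicate 1. The interval of the first, −0.11 to 0.12, is among the narrowest on the list. Parp3, which acts mainly at double strand breaks, stood at 0.11 ± 0.08 and 0.02 ± 0.12, and the latter became 0.16 without KO replicate 1. Another Parp3 probe set, under the filter, was higher in all KO than in all WT mice by 0.19, at a mean level of 5.35. Xrcc1 differed by −0.05 ± 0.07.

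**Figure D3:**
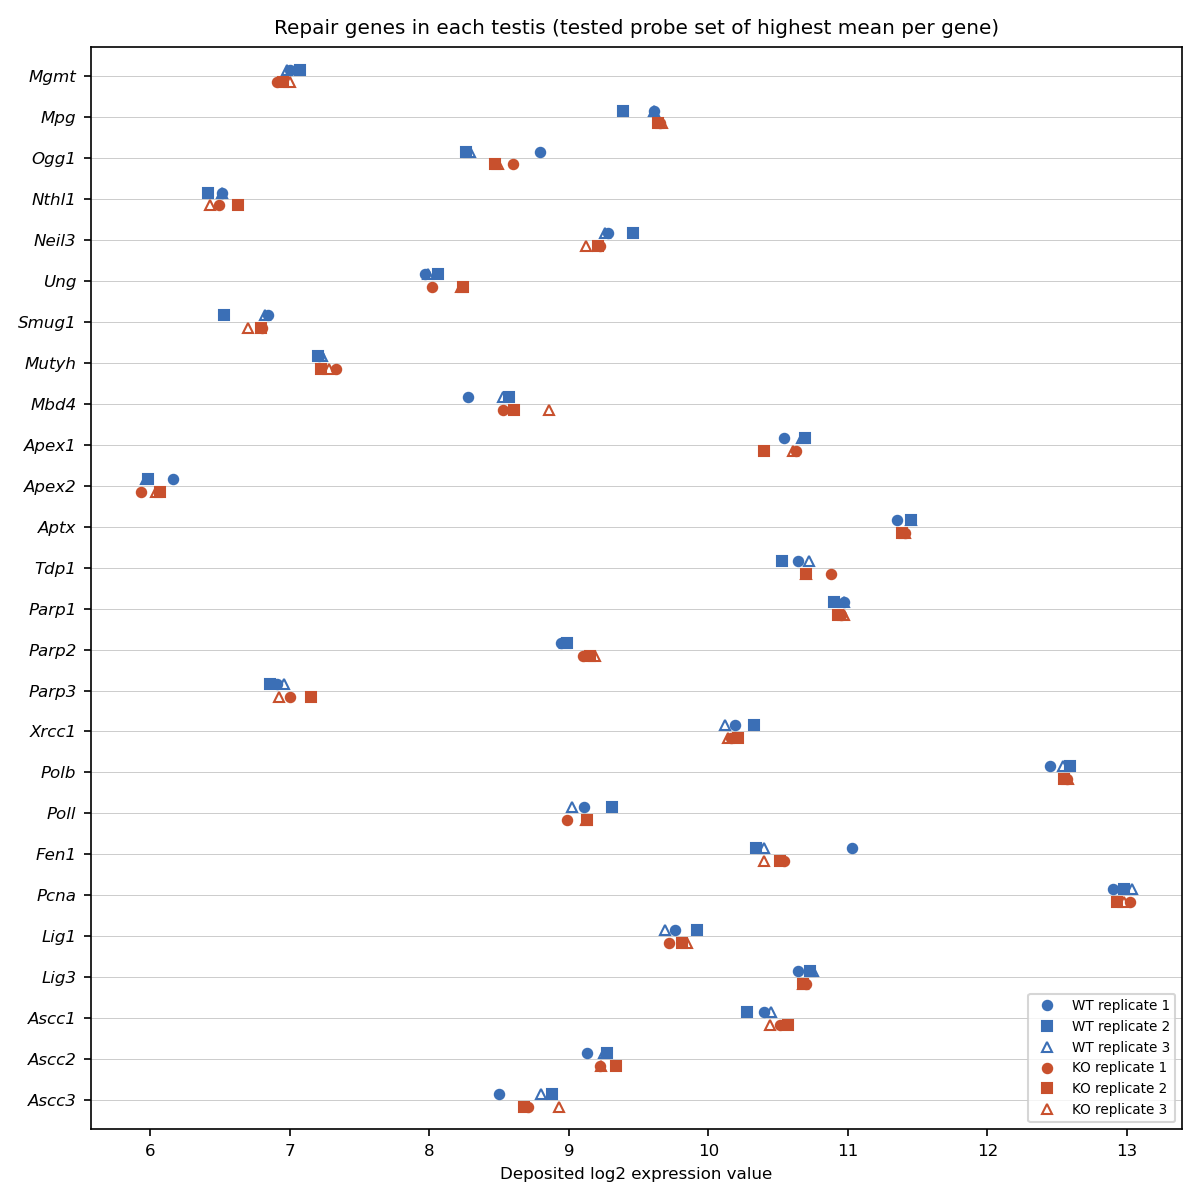
Deposited log2 values of the 26 tested repair genes in each mouse, at the tested probe set of highest mean (blue, WT; red, KO; symbols, replicate number). WT and KO symbols do not overlap for Parp2, Neil3 and Mpg, and positions of different genes cannot be compared, because probe sets differ in their response.

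Gap filling and strand displacement had 0 calls among 8 tested probe sets. Polb, the polymerase of short-patch repair, read 12.45, 12.59 and 12.54 in WT and 12.57, 12.55 and 12.58 in KO at probe set 1434230_at. Its 4 probe sets differed by 0.03 to 0.08, and at 1425371_at the KO mice (7.90, 7.89 and 7.93) lay just above the WT mice (7.76, 7.88 and 7.83). That difference was 0.08 ± 0.06 (limma adjusted p = 0.993). At 1439840_at, where WT replicates 1 and 2 read 6.22 and 6.80, the difference of 0.04 became −0.08 without the first and 0.22 without the second. Poll, a polymerase of the same family, stood at −0.07 ± 0.09. Pcna, the sliding clamp of replication and long-patch repair, read 12.90, 12.98 and 13.04 in WT and 13.02, 12.93 and 12.98 in KO, and its difference of 0.00 had a 95% interval from −0.12 to 0.12.

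Fen1, the flap nuclease of long-patch repair, had the widest interval on the list. At probe set 1436454_x_at, WT replicate 1 read 11.03, while WT replicates 2 and 3 read 10.34 and 10.40 and the KO mice 10.54, 10.51 and 10.40. The difference was −0.10 ± 0.17. Leaving out WT replicate 1 gave 0.12, so that mouse set its sign, while leaving out WT replicate 2 gave −0.23. The other Fen1 probe set gave 0.08 ± 0.08.

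Of the ligases, Lig1, which seals long patches and Okazaki fragments, read 9.76, 9.92 and 9.69 in WT and 9.72, 9.81 and 9.85 in KO (0.01 ± 0.08). Lig3, the partner of XRCC1, had 4 tested probe sets with differences from −0.09 to 0.00. At 2 of these the mice lay close together, with standard errors of 0.05 and 0.06. The other 2 moved in opposite directions between WT replicates 1 and 2. At 1431715_a_at these mice read 10.50 and 9.78, and at 1437198_at they read 9.64 and 10.18. In both cases WT replicate 3 and the KO mice lay between them. Without WT replicate 1 the differences, −0.09 and 0.00, became 0.09 and −0.14, and without WT replicate 2 they became −0.27 and 0.13.

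The ASCC complex contains a helicase, ASCC3, that in human cells unwinds alkylated DNA for the demethylase ALKBH3. All 5 tested probe sets of its 3 genes had differences of 0.00 to 0.13, and none passed. Ascc1 read 10.40, 10.28 and 10.45 in WT and 10.51, 10.57 and 10.44 in KO, where KO replicate 3 overlapped with WT (0.13 ± 0.07, limma adjusted p = 0.993). Ascc2 stood at 0.04 ± 0.07 and 0.00 ± 0.06. Ascc3 stood at 0.05 ± 0.11 and 0.01 ± 0.15, and its probe sets again ran in opposite directions between WT replicates 1 and 2 (8.50 and 8.88 at the first, 7.05 and 6.43 at the second). They became −0.07 and 0.18 without WT replicate 1, and the second became −0.13 without WT replicate 2.

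The WT mice were spread more widely than the KO mice at most repair probe sets, as they were at most tested probe sets. WT replicates 1 and 2 were over 0.3 log2 apart at 9 of the 42 (21.4%, against 22.3% of all tested probe sets), with replicate 1 higher at 5 and replicate 2 higher at 4. They were the highest and the lowest of the 6 mice at 11 of the 42 (26.2%, against 20.8% of all). The SD was larger in WT than in KO at 30 of the 42 (71.4%, against 65.5% of all). Its medians were 0.090 in WT and 0.064 in KO, against 0.103 and 0.072 over all tested probe sets. Of the 10 genes with several tested probe sets, 6 had differences of 1 sign at all of them. The part of sample handling in the WT spread was not tested.

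**Figure D4:**
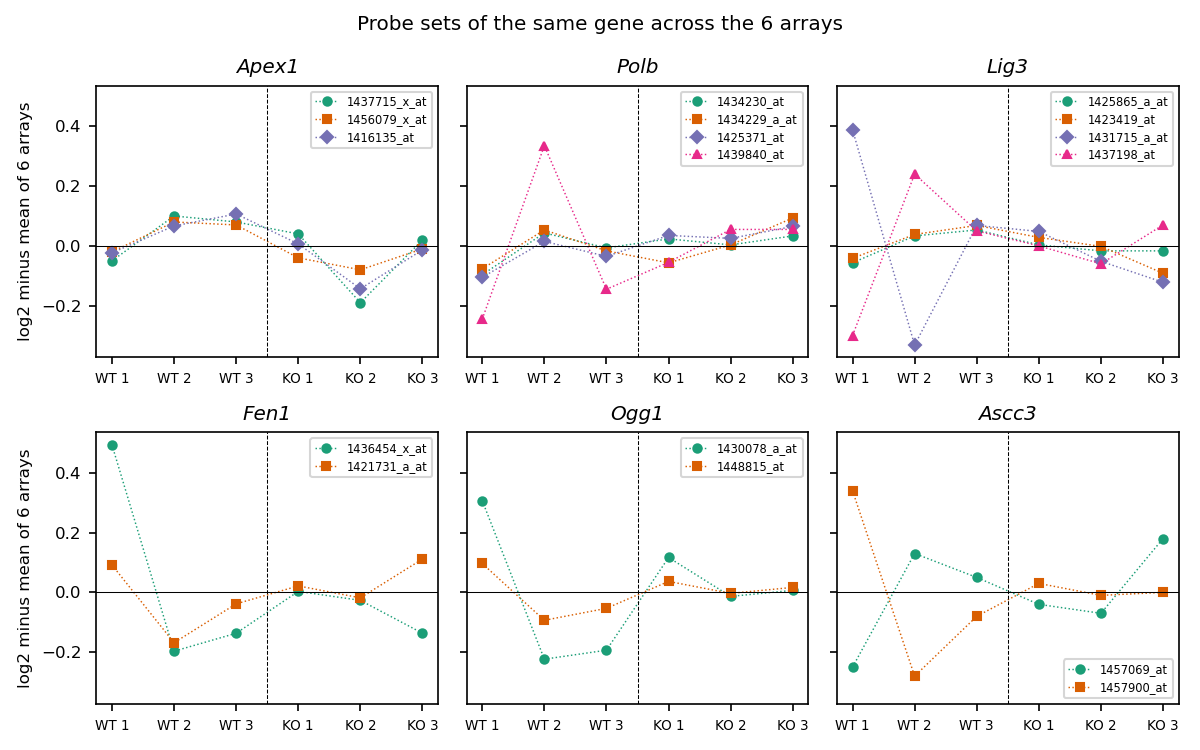
Deviation in log2 from the mean of the 6 arrays for the tested probe sets of 6 repair genes, by mouse (the dashed line parts WT from KO). The 3 probe sets of Apex1 run together, while those of Lig3 and Ascc3 part at WT replicates 1 and 2, where Lig3 reads 10.50 and 9.78 at 1 probe set and 9.64 and 10.18 at another.

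As a list, the repair genes showed a small balance above 0. Of the 26 genes, each at its tested probe set of highest mean, 17 were above 0 and 9 below, with a median difference of 0.037 log2. Over all 13897 genes tested, 7772 were above 0 and the median was 0.012. Over the 42 probe sets 27 were above 0 (64.3%, against 56.4% of all), and the median was 0.017, against 0.013 for all probe sets. It was 0.0 after quantile normalization and −0.004 without KO replicate 3, so no direction can be given for the list.

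Other genes of the pathway did not pass the test either. Of 38 further names, covering end processing, clamp loading, long-patch synthesis, the nucleotide pool and oxidised cytosine, 34 genes were tested on 53 probe sets. By limma 0 passed. An unadjusted p under 0.05 was reached by 2 of the 53 (against 5.11% of all tested), those of Alkbh3 given above and of Pold1. Without overlap between the groups, 6 of the 53 were higher in KO and 4 lower (against 7.12% and 3.84% of all tested). These shares were not compared by a test. Pold1, the catalytic subunit of polymerase delta, differed by −0.22 ± 0.09 at 1456055_x_at (limma adjusted p = 0.974) and by −0.05 ± 0.11 at its other probe set. The next by p were Tet2, an oxidase of methylated cytosine (0.28 ± 0.12, limma adjusted p = 0.981), and the polymerase epsilon subunit gene Pole3 (−0.15 ± 0.07, limma adjusted p = 0.993). The other Tet2 probe set, under the level filter, stood 0.20 higher in KO with overlapping groups. At Pole3 the 2 other probe sets stood at 0.03 and −0.02.

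Pcna, Fen1 and Lig1 also serve replication, and S phase genes were examined beside them. Of their 31 tested probe sets, 0 passed by limma and 0 had an unadjusted p under 0.05, with differences from −0.17 to 0.16. Among 14 genes 5 were above 0 and 9 below (median −0.037). Spermatogonial markers, which include dividing cells, had a mean level between 7.74 and 7.89 log2 in WT and between 7.72 and 7.76 in KO. Of their 8 tested probe sets 0 passed, and 3 were lower in all KO than in all WT mice (against 3.84% of all tested). Of the 6 spermatogonial genes 2 were above 0 and 4 below (median −0.06). Among Sertoli cell markers 5 of 6 genes were below 0 (median −0.088 over genes and −0.053 over the 11 tested probe sets). By limma 0 of the 11 passed, and 2 had an unadjusted p under 0.05 (against 5.11% of all tested). Without overlap, 2 of the 11 were lower in KO (against 3.84% of all tested). The mean level of the Sertoli cell markers was 9.62 to 9.65 in WT and 9.54 to 9.56 in KO. Other marker lists leaned the other way. Above 0 were 6 of 6 spermatid, 5 of 6 spermatocyte and 4 of 4 macrophage genes (medians 0.019, 0.045 and 0.044). Of the Leydig cell genes 2 were above 0 and 2 below, with Star at −0.41, −0.33 and −0.29. By limma 0 probe sets of these lists passed. Whether these marker values bear on any repair gene was not tested.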

How the data were processed

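The authors deposited 1 table of log2 expression values for 45101 probe sets and 6 arrays. That scale was judged by the range of the values (2.61 to 15.00, array medians 6.62 to 6.65). The submitters' processing notes name GCOS 1.4. How background, probe summary and normalization were handled is not stated there, and a global change of RNA could not be seen in equalised arrays. Signal over background is unknown, and the number of arrays limits the precision.

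Groups came from the titles. After removal of 64 control probe sets, the upper 60% by mean over all arrays was kept (27022, lowest mean 6.02). KO was compared with WT by limma 3.58.1 in R 4.3.3 (lmFit, eBayes with an intensity trend, two-sided), with Benjamini-Hochberg adjustment over all tested probe sets at 0.05. The pipeline was tested on simulated data with added differences larger than any seen among the repair genes. That test does not show how often differences of their size would be found. Genes were named only from probe sets with 1 gene. Members and lists were chosen with earlier results of these data known. All members are named, with values per mouse for those with an unadjusted p under 0.05 or without overlap at the probe set of highest mean. Of the other pathway genes, the 4 with the smallest p are named. Further values per mouse, neighbours and promoters were chosen after values were seen. In RefSeq promoters, motifs were searched as plain letters. Alternatives covered normalization, filter, moderation, array weights, a replicate block and left-out arrays.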

Additional observations from a re-analysis of the deposited data

How the results depend on the processing

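Under 16 alternatives, 0 repair probe sets and 0 probe sets of the other pathway genes were called. Of 662 values of single repair probe sets, 656 stayed within 1 SD of the value reported, the SD being that within groups, pooled over WT and KO. The other 6 moved further, all without WT replicates 1 and 2, and 78 values turned sign, all of them uncalled. Settings that changed only the filter, the moderation or the replicate block leave a difference as it is. Leaving out a single array cannot move it by 1 such SD. Most of the 656 could therefore not have moved further, and their number says little about stability. The count over all tested probe sets, 11, became 7 with the upper 40% by level, 46 with array weights, 0 without moderation and 2 without WT replicates 1 and 2, and it ran from 2 to 12 when single arrays were left out (6 when KO replicate 1, 4 when WT replicate 3 and 2 when KO replicate 3 was left out). The median difference of the repair probe sets ran from −0.004 (without KO replicate 3) to 0.028, and that of the genes from 0.015 (without WT replicate 2 or KO replicate 3) to 0.041 when single arrays were left out. Deviations of same-numbered WT and KO mice correlated at 0.223, −0.024 and 0.096, and those of differently numbered mice at −0.279 to 0.252. With 3 mice per group, these correlations cannot show whether replicate numbers pair the mice. With the replicate block, 9 probe sets were called overall and 0 among the repair genes. Signal over background is unknown, and 9 repair probe sets, that of Neil1 among them, were too low to be tested.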
